A study of Caenorhabditis elegans with 2 samples.

Results

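The genes described here are 10 components of Wnt signalling in Caenorhabditis elegans, out of 19973 protein-coding genes in the annotation. They are the 5 Wnt ligand genes lin-44, egl-20, cwn-1, cwn-2 and mom-2, the 3 Frizzled receptor genes lin-17, mig-1 and cfz-2, the β-catenin gene bar-1 and the TCF gene pop-1. They were taken by name and not by their peaks, though with earlier results of these data known, and all 10 matched the annotation. For each gene every peak summit was collected in a window made of the gene and the 5 kb upstream of its start.

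The peaks came from ChIP-seq, in which chromatin is precipitated with an antibody, here against GFP, and the recovered DNA is sequenced to map the sites of a tagged protein. Whole hermaphrodite L1 larvae of strain OP522 were used, with the genotype unc-119(tm4063) III; wgIs522, in which DSC-1 carries a GFP-FLAG tag at its carboxy terminus. The larvae were taken 6 hours after synchronization by starvation following bleaching. There were 2 biological replicates of this 1 group, so conditions could not be compared, and the control experiment that the labels name was not analysed here. Both replicates came from 1 transgenic line, and the expression and copy number of the transgene were not given in the sources used here. Whole larvae give 1 signal summed over all cells, so a site used in few cells and a weakly occupied site in many cannot be told apart.

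Wnt proteins are secreted lipid-modified ligands that act through Frizzled receptors. In the canonical branch, receptor activation lets β-catenin accumulate and act with a TCF factor on target genes. In C. elegans larvae Wnt signalling directs the migration of neuroblasts and neurons, the polarity of dividing cells and the fates of vulval and seam cells. DSC-1 is a homeodomain protein of the paired-like class known for its part in the defecation motor program.

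The deposited lists used are all on the genome build ce11. They held 6283 pooled peaks past the authors' threshold on the irreproducible discovery rate (IDR), which measures how well the ranks of peaks repeat between replicates, 30000 peaks for the pooled replicates before that threshold, 26482 for replicate 1 and 30000 for replicate 2. The last 3 lists are named by the authors as peaks together with background. Each peak has a signal from the authors' peak caller whose scale is not stated, so signals and ranks (1 is the strongest) are read within a list. The signal of the IDR peaks had a minimum of 78.4, a median of 162 and a maximum of 2260. Read depth is unknown because the lists contain no read counts.

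An IDR summit lay in the window of 5 of the 10 Wnt pathway genes, namely egl-20, cwn-1, cwn-2, lin-17 and pop-1. Over all protein-coding genes, 32.9% had one. The windows of the Wnt genes were somewhat longer, with a median of 8.31 kb against 7.03 kb over all genes, and long windows hold a summit more often. Of the 7 Wnt genes with windows of 7 to 10 kb, 3 had an IDR summit, where 34.6% of all genes with such windows did. Of the 3 with windows of 10 to 20 kb, 2 had one, where 48.7% of all such genes did. The count of genes is therefore near that of other genes with windows of the same length.

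**Figure D1:**
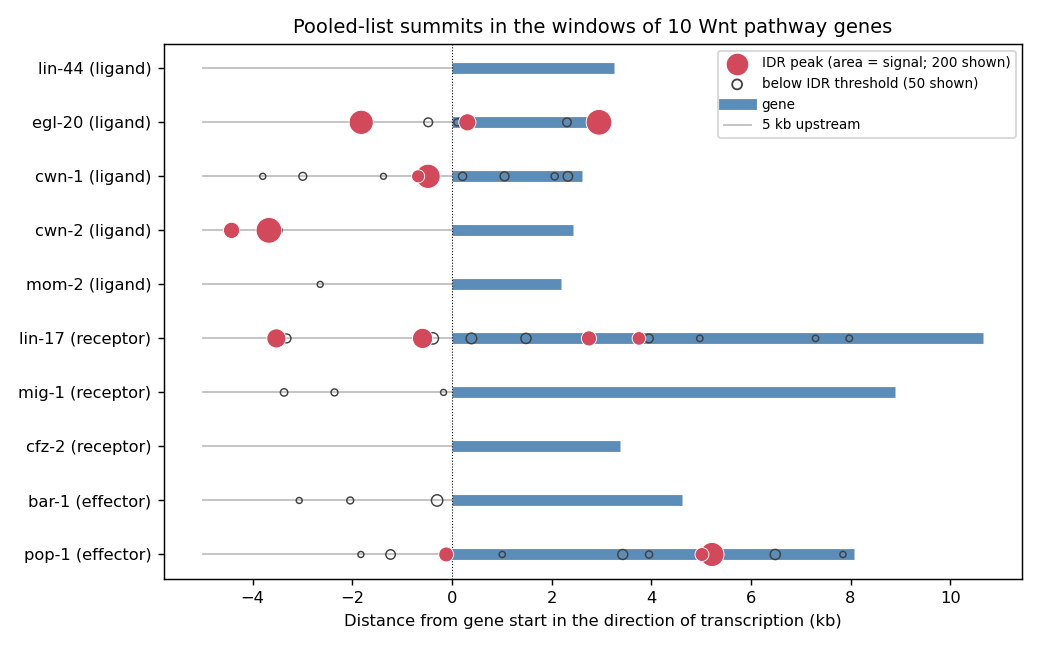
Summits of the pooled list in the window of each of the 10 genes, by distance from the gene start in kb (negative values are upstream); the thick bar is the gene, the thin line the 5 kb upstream, filled circles are IDR peaks and open circles pooled peaks below the IDR threshold, with circle area proportional to signal. Of 47 summits, 14 are IDR peaks, and they lie in the windows of egl-20, cwn-1, cwn-2, lin-17 and pop-1.

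The 5 genes carried 2 to 4 IDR summits each, 14 in all, with a median of 3 per gene, where the median was 1 over the 6566 protein-coding genes with any. This gave 1.41 IDR summits per 10 kb over the 10 windows together, against 0.63 per 10 kb over the merged windows of all protein-coding genes. The windows of 35 further pathway genes, described below, held 0.897 per 10 kb. Summits of 1 gene are not independent of each other, and no test was made over so few genes. With only the 3141 strongest IDR peaks, cwn-1, cwn-2 and pop-1 had 1 summit each and 2 Wnt genes had more. Over all protein-coding genes, 3307 then had 1 and 869 had more. When summits within 250 bp of a stronger one were dropped, cwn-1 had 1 and 4 Wnt genes had more. Over all protein-coding genes, 4431 then had 1 and 2132 had more. The signals ranged from 87.9 to 337, with a median of 168, close to the median of the whole IDR list. The strongest was at rank 1112. The best rank per gene had a median of 1354 over the 5 Wnt genes with a summit. Over the 6566 protein-coding genes with any it was 2287. A gene with more summits has more chances of a good best rank, and no test was made. The median rank of the 14 summits was 3041, against 3142 over the IDR list.

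Of the ligand genes, egl-20, cwn-1 and cwn-2 had IDR summits. EGL-20 is made in the tail and guides the migrating Q neuroblast descendants, and CWN-1 and CWN-2 act in cell migration and in the nervous system. The egl-20 gene (WBGene00001188) lies on chromosome IV at 9812357 to 9815532, on the minus strand. It had 3 IDR summits, at both ends of the gene and upstream. The strongest was 2952 bp downstream of the start, in the 3′ UTR (peak 9812378 to 9812815), with a signal of 336 at rank 1114 in the pooled list, 121 at rank 1475 in replicate 1 and 215 at rank 949 in replicate 2. The nearest protein-coding gene start to it was that of the neighbour dct-15, 1847 bp away. The second lay 1821 bp upstream, outside genes (peak 9817187 to 9817470), with a signal of 299 at rank 1363 in the pooled list, 128 at rank 1350 in replicate 1 and 184 at rank 1255 in replicate 2. These 2 summits had similar ranks in the pool and in each replicate. The third, 310 bp downstream of the start in an intron (peak 9815024 to 9815419), was weaker, with a signal of 150 at rank 3423, 60.9 at rank 3619 in replicate 1 and 79.5 at rank 3869 in replicate 2. None of the 3 was in the promoter window of egl-20, here 1000 bp upstream to 200 bp downstream of the outermost start.

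The cwn-1 gene (WBGene00000857) lies on chromosome II at 130983 to 133598, on the minus strand. Its strongest summit was 479 bp upstream (peak 133936 to 134294), with a signal of 300 at rank 1354 in the pooled list, 106 at rank 1849 in replicate 1 and 198 at rank 1112 in replicate 2. It lay within exons of short ncRNA genes that the annotation lists on both strands under the name K10B4.8. A second IDR summit in the same peak interval lay 678 bp upstream, with a signal of 87.9 at rank 5702, near the lowest of the list. Replicate 2 had a summit 5 bp from it, at rank 3778, and replicate 1 had none within 100 bp. Both summits were in the promoter window, and no other protein-coding gene shared them.

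The cwn-2 gene (WBGene00000858) lies on chromosome IV at 10067816 to 10070251, on the plus strand. Its 2 IDR summits were far from its start, outside genes and nearer to the upstream neighbour ipla-7. The stronger one (peak 10064020 to 10064281) was 3673 bp upstream of cwn-2 and 1294 bp upstream of ipla-7, with a signal of 337 at rank 1112 in the pooled list, 129 at rank 1315 in replicate 1 and 217 at rank 929 in replicate 2. The weaker one was 4423 bp upstream of cwn-2 and in the promoter window of ipla-7, with a signal of 135 at rank 3802, 71.6 at rank 3030 in replicate 1 and 63.8 at rank 4808 in replicate 2. No IDR summit lay within the gene or the nearest 2000 bp upstream, so cwn-2 has none in a window that short.

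**Figure D2:**
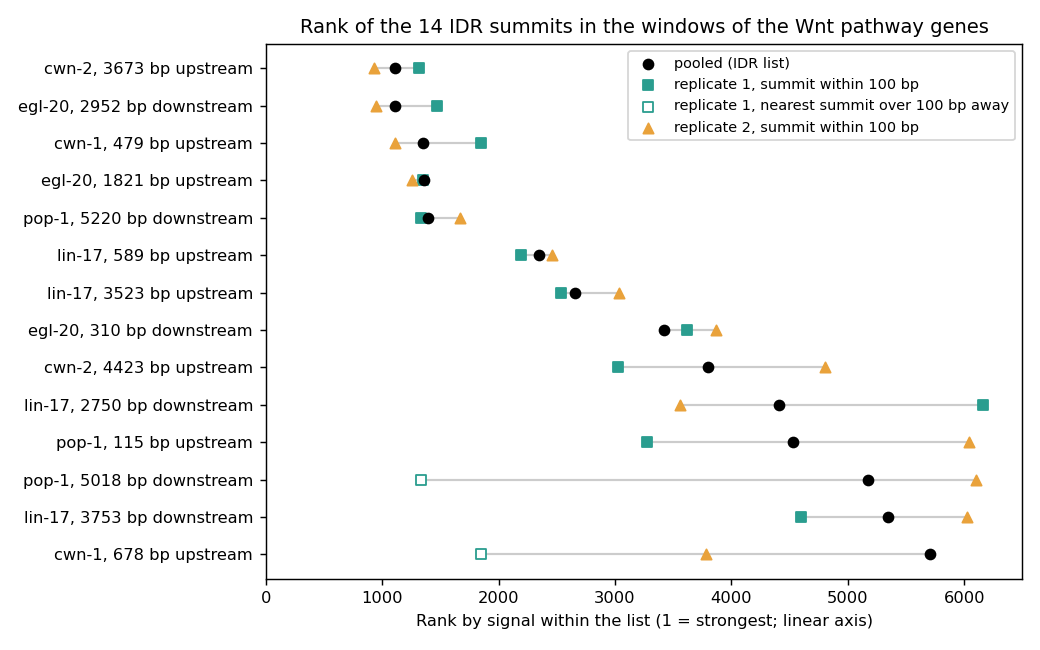
Rank by signal (linear axis, 1 is the strongest) of each of the 14 IDR summits in the pooled list (circles) and of the nearest summit in replicate 1 (squares, open where it is over 100 bp away) and replicate 2 (triangles), ordered by pooled rank; distances are from the start of the named gene. The 5 strongest summits lie between ranks 929 and 1849 in every list, and the 2 open squares belong to the weaker summits of the close pairs at pop-1 and cwn-1.

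The sequences around 5 of these ligand summits are shown because they are windows in which binding words were searched, and they hold 2 of the 3 windows with a match. Each runs from 50 bp before to 50 bp after a summit, on the plus strand of ce11 (WBcel235, from RefSeq), with any matched word in capitals. The window at the 3′ end of egl-20 holds UTR and is not shown.
egl-20, 310 bp downstream, chrIV:9815172-9815272: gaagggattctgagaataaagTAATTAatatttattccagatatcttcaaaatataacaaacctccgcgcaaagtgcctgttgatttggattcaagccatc
egl-20, 1821 bp upstream, chrIV:9817303-9817403: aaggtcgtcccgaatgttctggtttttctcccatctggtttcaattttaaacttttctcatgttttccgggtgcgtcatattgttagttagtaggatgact
cwn-1, 479 bp upstream, chrII:134027-134127: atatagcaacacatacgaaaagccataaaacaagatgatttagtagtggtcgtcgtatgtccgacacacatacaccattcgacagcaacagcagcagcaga
cwn-2, 3673 bp upstream, chrIV:10064093-10064193: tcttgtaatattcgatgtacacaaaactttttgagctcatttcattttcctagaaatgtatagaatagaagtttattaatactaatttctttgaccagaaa
cwn-2, 4423 bp upstream, chrIV:10063343-10063443: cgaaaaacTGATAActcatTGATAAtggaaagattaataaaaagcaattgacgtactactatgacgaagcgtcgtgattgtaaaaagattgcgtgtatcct

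The homeodomain word TAATTA was present at 1 of the 14 summits of the Wnt genes, the intronic one of egl-20, and at 4.54% of all IDR summits. A pair of TAAT sites facing each other (TAATNNATTA and TAATNNNATTA) with 2 or with 3 bases between them, as paired-class homeodomain dimers prefer, was present at 0 of 14, and at 0.366% and 0.621% of all IDR summits. The word CTTTGAT, known for TCF factors such as POP-1, was present at 0 of 14 and at 1.78% of all. The word GAGAGA was present at 0 of 14, which by an exact Clopper-Pearson 95% interval allows a share of up to 23.2%, and at 20.8% of all IDR summits. The GATA-type word TGATAA was present at 2 of 14, at the summit 4423 bp upstream of cwn-2, where it occurs 2 times as the capitals show, and at the summit of lin-17 that lies 3753 bp downstream of its start, and at 6.48% of all. All words were searched on both strands in windows of the same length. A TAAT pair can itself hold TAATTA, and CTTTGAT can overlap TGATAA. The exact 95% interval of each share over the 14 windows included the share over the whole list. For the words at 0 of 14 that interval spans every share up to 23.2%, so so few windows could not separate these shares. The 14 windows come from 5 genes and are not independent, so this is a description and no test. The counts depended on the window. TAATTA was at 0 of 14 summits in windows of 51 bp and at 2 of 14 with 100 bp on each side, TGATAA at 1 and at 4, and GAGAGA at 0 and at 2. Over all IDR summits the shares with 100 bp on each side were 8.5% for TAATTA and 13.8% for TGATAA, and GAGAGA was at 2013 of 6283. In windows of 51 bp the shares over all IDR summits were 1.96% for TAATTA, 2.75% for TGATAA and 10.9% for GAGAGA. The GC content of the 14 windows ranged from 25.7% to 53.5% with a median of 39.1%, against a median of 42.6% over all IDR summits.

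The ligand genes mom-2 and lin-44 had no IDR summit. MOM-2 is the ligand that polarizes the embryonic endomesoderm precursor, and LIN-44 is made in the tail hypodermis and orients the division of tail cells. The mom-2 window had a single pooled summit, 2644 bp upstream, with a signal of 18.1 at rank 29430, close to the bottom of that list. Replicate 1 had a summit 54 bp from it at rank 21913, and replicate 2 had one 6 bp from it at rank 29297. Replicate 2 also had one in a coding exon of mom-2, 1715 bp downstream of the start, at rank 27425. The lin-44 window had no summit in any of the lists. The stretch without a summit around the lin-44 start was 58.1 kb long in the IDR list, 41.7 kb in the pooled list, 41.7 kb in replicate 1 and 41.5 kb in replicate 2.

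Among the Frizzled receptor genes, lin-17 had IDR summits and mig-1 and cfz-2 had none. LIN-17 receives LIN-44 and EGL-20 signals, MIG-1 acts with it in Q neuroblast migration, and CFZ-2 acts in cell and axon migration. The lin-17 gene (WBGene00003006) lies on chromosome I at 2706883 to 2717549, on the plus strand, and had 4 IDR summits, the largest number of the 10 genes, in the longest window, 15.7 kb. The strongest lay 589 bp upstream, outside genes and in the promoter window of lin-17 alone, with a signal of 208 at rank 2347 in the pooled list, 93.3 at rank 2196 in replicate 1 and 117 at rank 2458 in replicate 2. A further one was 3523 bp upstream, in an exon of the ncRNA gene Y71F9B.21, with a signal of 187 at rank 2659, 83.3 at rank 2538 in replicate 1 and 97.8 at rank 3031 in replicate 2. The other two were intronic, 2750 and 3753 bp downstream of the start, and weaker, with signals of 117 at rank 4407 and 94.4 at rank 5342. All 4 had a summit within 100 bp in both replicates, and the replicates placed the intronic summit 2750 bp downstream least alike, at rank 6159 in replicate 1 and 3556 in replicate 2.

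In the mig-1 window, 13.9 kb long, the pooled list had 3 summits, all upstream and outside genes, with signals from 18.4 to 28.0 and a best rank of 18088. The average for a window of that length is 4.2 pooled summits. Replicate 1 had 3 summits and replicate 2 had 2, and the replicates shared none of these within 100 bp. The cfz-2 window, like that of lin-44, had no summit in any list. The stretch without a summit around its start was 169.8 kb long in the IDR list, 84.8 kb in the pooled list, 40.5 kb in replicate 1 and 114.5 kb in replicate 2. These stretches were measured at lin-44 and cfz-2 because their windows held no summit, so they describe the loci and were not tested. Gaps between neighbouring summits at least as long as that at lin-44 made up 5.29% of the IDR list and 0.857% of the pooled list. In replicates 1 and 2 they made up 0.517% and 0.834%. For cfz-2 the shares were 0.43%, 0.173%, 0.567% and 0.08% in the same order. These shares count gaps and not their length. Long gaps cover a larger share of the genome than of the count, so the shares understate how often a gene lies in one. Windows with no summit in the pooled list or in either replicate list are common, since 25.7% of all protein-coding genes and 22.9% of those with windows of 7 to 10 kb had none.

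The 2 effector genes differed in the same way. POP-1 is the TCF factor on which Wnt signals converge in the nucleus, and BAR-1 is the β-catenin that serves the canonical branch. The pop-1 gene (WBGene00004077) lies on chromosome I at 2822243 to 2830311, on the minus strand, and had 3 IDR summits. The strongest was 5220 bp downstream of the start, in a coding exon (peak 2824987 to 2825195), with a signal of 295 at rank 1398 in the pooled list, 129 at rank 1330 in replicate 1 and 154 at rank 1671 in replicate 2. A weaker one 202 bp away in a coding exon had a signal of 98.6 at rank 5176. Replicate 2 had a summit 40 bp from it at rank 6101, and replicate 1 had none within 100 bp. The third was 115 bp upstream, in the promoter window and in an exon of the ncRNA gene W10C8.14, with a signal of 114 at rank 4529, 66.6 at rank 3275 in replicate 1 and 50.2 at rank 6045 in replicate 2.

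The bar-1 gene (WBGene00000238), on chromosome X at 7166005 to 7170625 on the minus strand, had no IDR summit but came nearest to having one. A pooled summit 297 bp upstream, in its promoter window, had a signal of 66.3 at rank 7286, the strongest of the 33 pooled summits below the threshold in the windows of the 10 genes. It lay in exons of the ncRNA genes F43E12.4 and F43E12.5. The weakest summit inside the threshold was that of cwn-1, with a signal of 87.9. In replicate 2 the bar-1 summit had a signal of 53.6 at rank 5680, within the strongest 6283 peaks, and in replicate 1 the nearest summit, 54 bp away, had a signal of 15.8 at rank 16900. The bar-1 window thus counts as having a peak with replicate 2 alone and not with replicate 1 alone or with both.

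**Figure D3:**
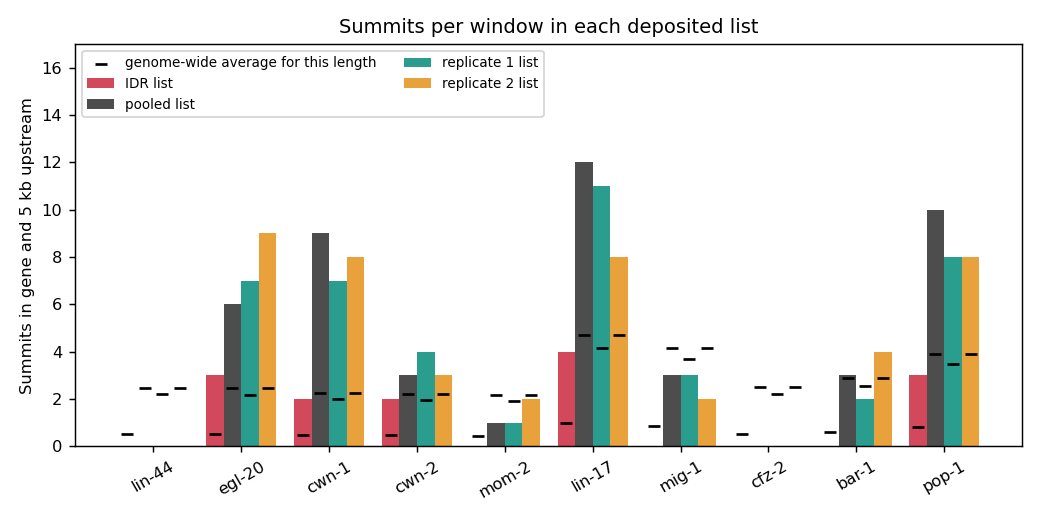
Number of summits in the gene and 5 kb upstream for each of the 10 genes in the IDR, pooled, replicate 1 and replicate 2 lists (bars), with the genome-wide average of each list for a stretch of the same length (dashes). The bars of egl-20, cwn-1, cwn-2, lin-17 and pop-1 rise above the dashes in every list, and lin-44 and cfz-2 have no bars.

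The replicates gave the same picture for most of the summits. Of the 14 IDR summits of the Wnt genes, 12 had a summit within 100 bp in both replicate lists, where 95.2% of all IDR summits did. The 2 exceptions were the weaker summits of the close pairs at cwn-1 and pop-1. The IDR list was built from these same libraries, so this is not an independent measure of reproducibility. Before the threshold the 10 windows together held 47 summits in the pooled list, 43 in replicate 1 and 44 in replicate 2. These correspond to 4.73, 4.33 and 4.43 summits per 10 kb, against 3.03, 2.67 and 3.03 over the windows of all protein-coding genes. The windows of 35 further pathway genes, described below, held more, with 5.43, 4.59 and 5.61 per 10 kb in the same lists. In the 10 windows the 33 pooled summits below the threshold had signals from 17.9 to 66.3 with a median of 26.6. Those of egl-20 lay 476 bp upstream, with a signal of 38.8, and 111 and 2309 bp downstream of the start, with signals of 26.4 and 37.4. The lin-17 window had 8, with signals from 20.5 to 65.5, and the strongest of them lay 383 bp upstream, in its promoter window. The cwn-1 window had 7, from 17.9 to 46.1, and the pop-1 window 7, from 18.5 to 52.7, of which 1 lay in the snoRNA gene W10C8.17 within a pop-1 intron. In the whole pooled list egl-20, mig-1 and bar-1 thus joined cwn-1, lin-17 and pop-1 as genes with a promoter summit, which makes 6 of the 10, where 33.3% of all protein-coding genes had a pooled promoter summit.

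Only some of the summits lay in promoters. A promoter summit was present at 3 of the 10 genes, cwn-1, lin-17 and pop-1, where 14.7% of all protein-coding genes had one. No test was made of this difference. Of the 14 summits, 8 were upstream of the start of the Wnt gene, 4 of these in its promoter window, and 6 were inside the gene. Over all IDR summits 36.5% were inside a protein-coding gene. A promoter window of any protein-coding gene held 5 of the 14 summits and 38.7% of all IDR summits, so both of these counts were near the shares of the whole list. The sets differ, since the 14 were collected only from genes and the 5 kb upstream. Of the 6283 IDR summits, 5778 lay in such windows of protein-coding genes. Of the 6 inside, 3 were in introns, 2 in coding exons and 1 in a 3′ UTR. The start of the Wnt gene itself was the nearest protein-coding start for 8 of the 14 summits, and another gene was nearer for 6, namely dct-15 for the summit in the egl-20 3′ UTR, ipla-7 for both of cwn-2, F32B5.1 for the ncRNA summit upstream of lin-17 and W03D8.3 for both coding summits of pop-1.

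The wider pathway was read from 35 further genes of Wnt secretion, reception, transduction and output. An IDR summit lay in the window of 22 of them, against 32.9% of all protein-coding genes. Their windows were often long. Of those with windows of 7 to 10 kb, 8 of 14 had a summit (all genes 34.6%). Of those of 10 to 20 kb, 10 of 15 had one (all genes 48.7%). Both of those of 20 kb and over had one (all genes 68.3%), as did 2 of the 4 under 7 kb (all genes 25.7%). By role, summits were found for 3 of 3 catenin genes, 8 of 11 cytoplasmic transducers, 4 of 6 further receptor and polarity genes, 3 of 6 secretion genes, 3 of 7 target genes and 1 of 2 antagonists. A promoter summit was present at 7 of the 35, where 14.7% of all protein-coding genes had one.

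**Figure D4:**
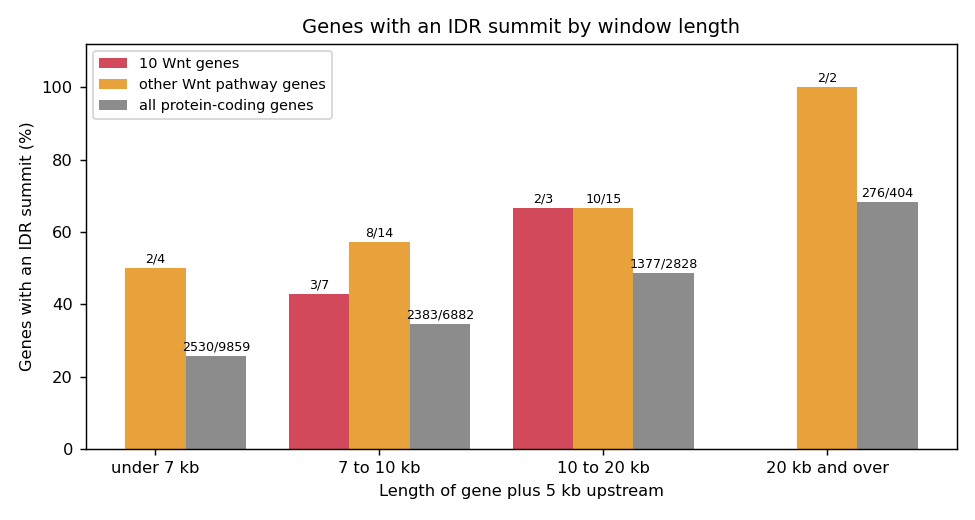
Share of genes with an IDR summit in the gene and 5 kb upstream, in percent, by length of that window, for the 10 Wnt genes, the 35 other pathway genes and all protein-coding genes; the counts stand above the bars. The share rises with window length for all genes, and classes of the Wnt genes hold 3 to 7 genes.

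The strongest of these peaks lay at the mom-1 gene, which encodes the Porcupine acyltransferase needed to make active Wnt ligands. It was intronic, 3453 bp downstream of the start (chromosome X, 6296233 to 6296939), with a signal of 1750 at rank 13 in the pooled list, rank 28 in replicate 1 and rank 9 in replicate 2. A weaker summit 732 bp upstream of mom-1, at rank 2550, was shared with the promoter window of lev-9. The Dishevelled gene mig-5 had a summit 188 bp upstream at rank 81, in a window shared with the chaperonin gene cct-1. That mig-5 summit had a signal of 972, with rank 64 in replicate 1 and 97 in replicate 2. The antagonist gene plr-1, whose product lowers Frizzled at the cell surface, had a summit at rank 463, 2704 bp upstream. The β-catenin gene wrm-1 had one at rank 529, 786 bp upstream. These genes were named for a promoter summit or as the strongest of their role, and they are not a full ranking. The cytoplasmic transducer genes dsh-1 and gsk-3 had stronger summits than plr-1 and wrm-1, at ranks 278 and 324.

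The remaining promoter summits were at the Hox gene mab-5, an output of egl-20 signalling, at rank 1325 and 975 bp upstream, and at the Wntless gene mig-14, at rank 2801 and 289 bp upstream. They were also found at the Van Gogh gene vang-1, at rank 5308 and 361 bp upstream, and at the sorting nexin gene snx-3, at rank 5633 and 364 bp upstream, shared with rad-54.L. Of the further receptors the strongest summit was in an intron of the Ror gene cam-1, at rank 2132. The remaining Frizzled gene mom-5, named here after its values were seen because it completes that family, had 1 IDR summit, 3461 bp upstream at rank 5798. Of the 4 Frizzled genes, 2 thus had an IDR summit in the window.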

How the data were processed

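The authors deposited narrowPeak lists for each replicate, for the pooled replicates and for pooled peaks past an IDR threshold, with a signal value per peak. Per the descriptions deposited with the samples, replicate lists derive from that replicate's alignments and 1 further file common to both, and the lists used are on ce11. The aligner, peak caller, IDR threshold and signal scale were not given in the sources used here. The ce10 lists were not used, and no coordinates were converted.

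Summits (1-based) were counted in each gene and 5000 bp upstream, using Ensembl 115 gene models (WBcel235, the same assembly as ce11) and the outermost start of each gene. Trans-splicing is common in nematodes, and the annotated start may therefore be downstream of the true one. Summits within 100 bp were treated as matching. The 95% intervals of shares (exact, Clopper-Pearson) reflect counting error alone and treat the summits as independent. The counting code was tested on simulated data. The members and lists were chosen with earlier results of these data known, so counts stand beside those of all protein-coding genes without a test. Alternatives were other windows, peak overlap, stronger or all pooled peaks, each replicate alone and other word windows.

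The genes named were the 10 members, other pathway genes with a promoter summit or the strongest summit of their role, and genes nearest to or sharing a summit. The genes mom-5, dsh-1 and gsk-3 were added after their values were seen. The sequence rule named the strongest IDR summit of each member not on chromosome I, which leaves out lin-17 and pop-1. That of egl-20 lies in a UTR, so its other 2 summits were printed, and these and the weaker cwn-2 summit were chosen after their values were seen. Python 3.11.15, numpy 2.4.6, pandas 2.3.3, scipy 1.17.1 and matplotlib 3.10.9 were used.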

Additional observations from a re-analysis of the deposited data

How the results depend on the processing

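No paired analysis was possible because there is 1 group. The same 5 Wnt genes had a summit with the upstream part ending at the next protein-coding gene, with peak overlap, with the 3141 strongest IDR peaks, with replicate 1 alone and after summits within 250 bp of a stronger one were dropped (chosen after seeing the data), which left 12 summits, or 1.21 per 10 kb against 0.604 for all protein-coding genes. With 2000 bp upstream cwn-2 was lost, with 10000 bp upstream mom-2 was gained (6 genes), and with replicate 2 alone bar-1 was gained. The genes alone, with no upstream part, left 3 Wnt genes with 6 summits and 8 other pathway genes. The 3141 strongest left 7 summits, or 0.705 per 10 kb against 0.315 for all protein-coding genes. At these 7 summits TAATTA and TGATAA were each at 0, where 4.81% and 6.18% of the 3141 strongest held them. The whole pooled list gave 8 Wnt genes, 47 summits, 4.73 per 10 kb and 6 genes with a promoter summit.

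The share of all protein-coding genes with a summit was 23.8% with 2000 bp upstream, 44.2% with 10000 bp, 7.49% for the genes alone, 22.8% with the upstream part ending at the next gene, 33.9% with peak overlap, 20.9% with the 3141 strongest and 59.3% with the pooled list. Depth is unknown, so a gene with no summit is not shown to lack occupancy. Where these alternatives moved a value, the cause was not tested.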

Other observations

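Close pairs of summits recurred in these windows. In the pooled list 7 pairs of neighbouring summits lay under 250 bp apart, in the windows of egl-20, cwn-1, cwn-2, lin-17 and pop-1, and their spacing was 199 to 206 bp in every case. Each pair held an IDR summit and a weaker summit, which was itself an IDR peak at cwn-1 and pop-1. Over the whole genome the shortest spacing was 199 bp in each list. The pooled list held 2029 neighbour spacings from 190 to under 210 bp, 1024 from 210 to under 230 bp and 540 from 230 to under 250 bp. The IDR list held 209, 36 and 16 spacings in these same ranges. Whether the weaker summits of such pairs are separate sites was not tested.

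Short ncRNA genes lay under several of these summits. Of the 14 IDR summits, 3 were inside an ncRNA gene and outside protein-coding genes, at cwn-1, lin-17 and pop-1, where 3.84% of all IDR summits were. The strongest pooled summit of bar-1 was too, but at rank 7286 it was below the threshold and is not among the 14. The pattern was noticed in the data, and it was not tested over so few summits.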
